A study of Mus musculus with 21 samples.

Results

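The 37 genes described here are a set of 30 immediate early genes and 7 heat shock genes, measured in microglia, the resident macrophages of the brain. They were taken by name from 18718 genes measured over 2 tables, one on the loss of apolipoprotein E (ApoE, the main lipid carrier of the brain) and one on its injection. All 37 have a row among the 18079 genes of the genotype table, and 36 have one among the 13297 genes of the injection table, where Egr3 was not analysed. The set falls into 7 AP-1 members (Fos, Fosb, Jun, Junb, Jund, Atf3 and Maff), 3 Egr members (Egr1, Egr2 and Egr3), 3 Klf members (Klf2, Klf4 and Klf6), 17 other early response regulators, and the 7 heat shock members Hspa1a, Hspa1b, Hsp90aa1, Hsp90ab1, Hspa8, Dnajb1 and Hspb1.

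The genotype table holds uninjected microglia labelled as female: 7 libraries of wild-type C57BL/6 mice, numbered 1 to 4 and 6 to 8, and 4 libraries of the ApoE knockout strain B6.129P2-Apoetm1Unc/J, in which the gene is disrupted in the germ line and so in each cell type. The injection table holds microglia of that same knockout strain labelled as male: 5 libraries after an injection of PBS, the carrier, and 5 after recombinant APOE protein (rAPOE) in PBS, taken 16 h later. Both injected groups therefore lack ApoE of their own. All mice were 12 to 18 weeks old, and the labels do not give the hemisphere of an injected library. The labels do not tie a library to a mouse, and each p-value therefore reflects how these libraries vary, which may be technical.

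Immediate early genes are transcribed within minutes of a stimulus, from factors already present in the cell and without new protein synthesis. Fos and Jun proteins pair to form the transcription factor AP-1, Egr and Klf proteins are zinc finger factors induced through the same kinase routes, and many of the regulators feed back on these routes, as the Dusp phosphatases do on MAP kinases. Heat shock genes code for chaperones that hold and refold proteins, and the stress-inducible ones are switched on by heat shock factor when unfolded protein accumulates. In microglia the inducible genes of both sets respond to injury and inflammatory signals, and their transcripts are also known to accumulate while brain tissue is dissociated.

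Values are normalised counts, that is 3′ tag counts scaled by a factor for each library. Each table was scaled apart, so levels are not compared between tables. Differences are on the scale of log2(normalised count + 1), which understates the change of low genes. They come from limma fits over all genes with a mean of at least 10 in the table, and the threshold was an adjusted p of 0.05 (Benjamini-Hochberg, over all genes of the fit). Wild-type libraries held 2016972 to 3054976 reads over 13592 to 15248 genes, knockout libraries 4247865 to 4969287 over 8117 to 10479, PBS libraries 704225 to 1347501 over 7601 to 11232, and rAPOE libraries 857059 to 1119059 over 7691 to 11342. Wild-type library 8 stood apart: Apoe was at 1011, where its group otherwise held 13195 to 17163, and the predicted gene Gm42418 took 42.1% of its values against 15.6% to 19.8%. Markers of sex did not follow the labels throughout. Y-linked reads numbered 11 to 36 in each wild-type library but the last (library 8), and Xist was at 1127 to 1279 there. These wild-type libraries thus held both Y-linked and Xist transcripts. Library 8 and the knockout held 0 Y-linked reads, with Xist at 3291 in library 8 and 1980 to 3292 in the knockout. Both libraries numbered 5 of the injection table held 0 Y-linked reads, with Xist at 979 and 718. Its other libraries held 83 to 374, with Xist at 1.60 or less. The main counts are given with and without library 8, and for the injection with and without both libraries numbered 5. Library 8 alone is left of the wild type without the libraries that hold Y-linked reads, so sex by these markers and genotype cannot be told apart.

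In the knockout libraries single members of each group passed, and most members did not. The AP-1, Egr and Klf members that passed fell, the early response regulators that passed rose, and heat shock members went both ways. Of the 36 members tested in the genotype comparison 8 passed, or 22.2%, against 25% of all 10401 genes tested. The 3 that rose in the knockout were the growth regulator Btg2, the ERK phosphatase Dusp6 and the constitutive chaperone Hspa8, and the share of all genes that rose was 5.14%. The 5 that fell were the AP-1 family members Atf3 and Maff, the zinc finger factors Egr2 and Klf4, and the chaperone Hsp90ab1, and the share of all genes that fell was 19.8%. The share of members that passed in any direction is thus near that of all genes. edgeR on recovered reads passed 7 of the 36, those 8 without Egr2, against 15.9% of all genes. DESeq2 passed 9 of 35, against 22.1% of the 10262 genes to which it gave an adjusted p. The median difference over the 36 members was 0.02, with 19 above 0 and 17 below, against −0.45 over all genes. Quantile normalisation, which forces all libraries to 1 distribution, moved these medians to 0.14 and 0.09. Under it 7 members passed, 3 higher and 4 lower, and of all genes 18.7% passed, 8.85% higher and 9.87% lower.

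**Figure D1:**
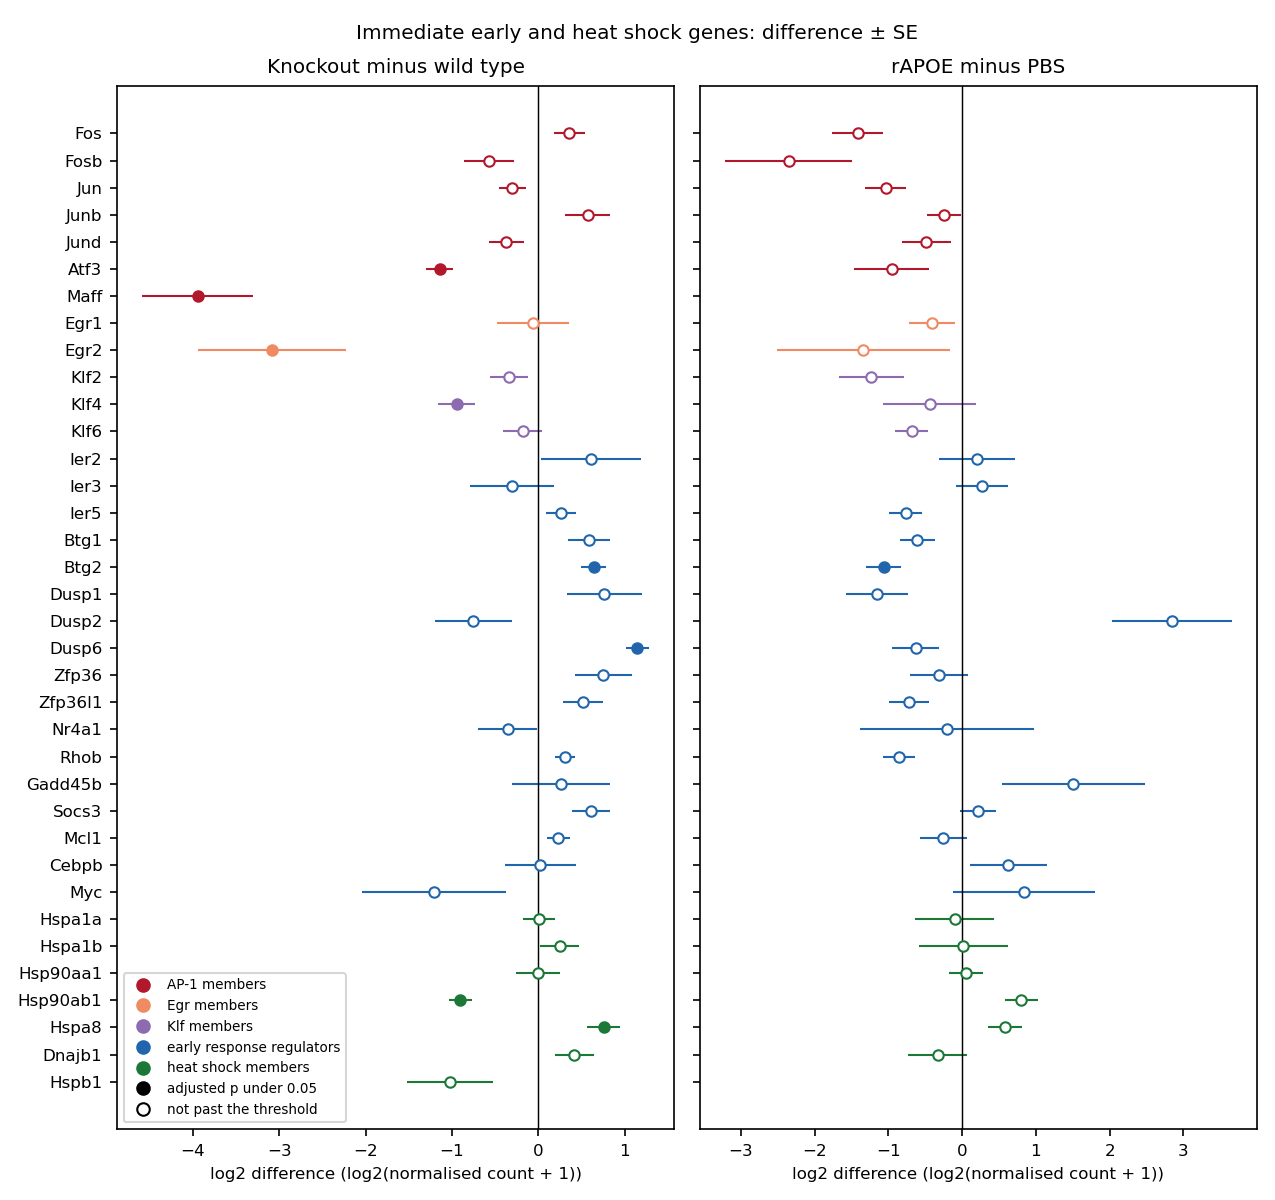
Points give the log2 difference of each tested member with its SE, on the left for knockout minus wild type and on the right for rAPOE minus PBS. Filled points passed the adjusted p of 0.05, which 8 members did on the left and Btg2 alone on the right. On the right all 6 tested AP-1 members lie below 0, from −2.35 for Fosb to −0.25 for Junb.

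Among AP-1 members, Atf3 had the clearest difference. Atf3 (chromosome 1, 191170296 to 191218039, minus strand, GRCm38) codes for a bZIP factor of the stress response that mostly represses its targets. Its normalised count was 653 to 1125 (median 756) over the 7 wild-type libraries and 348, 386, 387 and 299 in the knockout libraries. Every knockout library lay below the lowest wild-type library, and wild-type library 8 was the highest of all. The log2 difference was −1.14 (SE 0.16, limma adjusted p = 0.000107), so Atf3 fell, and passed under all 23 alternative settings and left-out libraries.

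The promoters of Atf3 and Fos are shown because these AP-1 members carried the clearest difference of the genotype and of the injection comparison, and because both hold the letters TGACG, the first part of the cAMP response element. The windows are the 250 bases before the RefSeq transcript start (GRCm38.p6, Atf3 at chr1:191183334-191183583, minus strand, and Fos at chr12:85473640-85473889, plus strand). Capitals mark TGACG, which reads as CGTCA where it lies on the other strand:
Atf3: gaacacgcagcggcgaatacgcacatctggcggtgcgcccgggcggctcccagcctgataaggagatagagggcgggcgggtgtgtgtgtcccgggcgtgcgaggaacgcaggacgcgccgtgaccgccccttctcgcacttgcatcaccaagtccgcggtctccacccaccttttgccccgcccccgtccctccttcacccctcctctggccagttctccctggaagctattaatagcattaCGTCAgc
Fos: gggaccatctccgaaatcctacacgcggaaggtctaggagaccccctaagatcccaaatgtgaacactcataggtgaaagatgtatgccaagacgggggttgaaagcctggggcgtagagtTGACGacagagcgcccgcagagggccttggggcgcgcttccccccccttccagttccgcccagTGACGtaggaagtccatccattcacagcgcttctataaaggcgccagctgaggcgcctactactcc
The letters begin 129 and 66 bases before the start in Fos and 7 bases before it in Atf3. TGACG on either strand was in 15 of the 30 members with a window in the RefSeq table (50%), and in 17.8% of all 32851 windows of that length. Here and below a member counted if any of its windows matched, while the share of all windows is per window. Egr2, Maff and Dnajb1 have more than 1 window, so the 2 shares are not of like units. The full element TGACGTCA was in 3 of the 30, namely Btg2, Dusp1 and Maff, against 1.55% of all windows, and it contains the shorter motif. The AP-1 site TGANTCA was in 1 of the 30, Zfp36l1, against 6.75%. A match describes letters and is no evidence of binding.

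Maff, a small Maf protein without an activation domain, was at 3.61 to 36.5 (median 17.3) in wild-type libraries and had a single read over the 4 knockout libraries, in library 1. The groups did not overlap, and wild-type library 8 was the lowest of its group at 3.61. The fitted log2 difference was −3.94 with limma (SE 0.64, adjusted p = 0.000435) and −6.47 with edgeR (adjusted p = 0.00168), so its size depends on the pseudocount or prior. Quantile normalisation ended the call, and without wild-type library 6 the mean of Maff fell below the level for testing.

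The other 5 AP-1 members did not pass. Fos was at 662 to 976 (median 742) in wild-type and 843, 1019, 1466 and 777 in knockout libraries, a difference of 0.35 (SE 0.18, limma adjusted p = 0.167). Junb was at 533 to 1568 (median 1437) and at 2251, 1877, 2072 and 1314, a difference of 0.57 (SE 0.27, limma adjusted p = 0.137). For both genes the groups overlapped, and for Junb the lowest wild-type value was that of library 8. Fosb differed by −0.58, Jun by −0.30 and Jund by −0.37. The annotation places the Prdx2 gene on the opposite strand over Junb, and antisense genes over Jun and Jund. In all, 10 of the 37 members overlap an annotated gene. Atf3 overlaps Gm24748 and Hspa1a overlaps Gm20481, both on the opposite strand, and Hspa8 overlaps Snord14c, Snord14d and Snord14e on its own strand. The others are Dusp1, Zfp36, Zfp36l1 and Cebpb. The strand setting of the counting is not given in the sources used here, so whether reads of overlapping genes were told apart is unknown. The summed normalised count of the 7 AP-1 members was 6021 to 8518 in wild-type and 5046 to 7986 in knockout libraries, so the ranges overlapped.

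Of the Egr factors, which bind GC-rich promoter elements, Egr1 did not differ beyond its spread and Egr2 was low in part of the knockout libraries. Egr1 was at 305 to 1856 (median 1534) in wild-type and 1437, 1306, 1727 and 634 in knockout libraries, a difference of −0.06 with a 95% interval of −0.97 to 0.84. Egr2 (chromosome 10, 67535475 to 67542188, plus strand) was at 28.9 to 69.0 (median 63.7) in wild-type and 66.4, 2.67, 0 and 7.98 in knockout libraries. Knockout library 1 lay among the wild-type libraries, and the other 3 lay below all of them. The difference of Egr2 was −3.08 (SE 0.85, limma adjusted p = 0.0167), which with edgeR was −1.59 (adjusted p = 0.327) and did not pass. Egr3 had 0 reads in all genotype libraries but wild-type library 6, where it was at 1.97, and was not tested.

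All 3 Klf members had negative differences (median −0.34, against −0.45 over all genes) and 1 passed. Klf4 (chromosome 4, 55527143 to 55532466, minus strand), a zinc finger factor of macrophage activation, was at 372 to 526 (median 459) in wild-type and 349, 285, 136 and 231 in knockout libraries. The groups did not overlap, and knockout library 3 was the lowest. Klf4 fell by 0.95 (SE 0.21, limma adjusted p = 0.00506), and passed under all 23 alternatives. Klf2, which restrains inflammatory genes in myeloid cells, was at 289 to 647 (median 537) and 501, 467, 408 and 285 (difference −0.34, limma adjusted p = 0.274). Klf6 was at 1344 to 3634 (median 1538) and 1369 to 1726, and its highest value, in wild-type library 8, was more than that of any other library of the table.

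The 17 other early response regulators had 13 differences above 0 and 4 below, with a median of 0.31 against −0.45 over all genes. Their summed normalised count was 8615 to 11378 in wild-type and 12391 to 14837 in knockout libraries, with no overlap. Without Dusp6 the sums overlapped, at 6879 to 9709 and 9271 to 11451. Dusp6 (chromosome 10, 99263231 to 99267489, plus strand), the phosphatase that inactivates ERK and is itself an ERK target, was at 1371 to 2059 (median 1509) in wild-type and 3386, 3611, 3965 and 3119.5 in knockout libraries. Each knockout library lay far above the wild-type range. Dusp6 rose by 1.14 (SE 0.13, limma adjusted p = 2.98e-05), a 2.20-fold difference of the means.

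Btg2 (chromosome 1, 134075170 to 134079120, minus strand), an antiproliferative protein that recruits the deadenylation machinery, was at 330.0 to 474 (median 383) in wild-type and 597, 622, 573 and 645 in knockout libraries. The knockout libraries were close to each other and above every wild-type library. Btg2 rose by 0.64 (SE 0.14, limma adjusted p = 0.00412), and both Dusp6 and Btg2 passed under all 23 alternatives. The Btg2 promoter is shown because this gene was the member that passed in both comparisons (250 bases before the RefSeq start, GRCm38.p6, chr1:134079156-134079405, minus strand). Capitals mark a full cAMP response element, TGACGTCA, which begins 166 bases before the start:
Btg2: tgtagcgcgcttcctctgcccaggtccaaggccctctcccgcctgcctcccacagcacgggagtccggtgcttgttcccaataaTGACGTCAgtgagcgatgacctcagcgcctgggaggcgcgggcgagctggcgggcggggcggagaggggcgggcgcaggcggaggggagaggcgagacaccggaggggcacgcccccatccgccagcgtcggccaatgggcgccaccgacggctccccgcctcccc
Of the regulators that did not pass, those nearest to the threshold were Socs3, the inhibitor of JAK kinases, at 101 to 206 in wild-type and 198 to 301 in knockout libraries (limma adjusted p = 0.0560), the small GTPase Rhob (limma adjusted p = 0.0668) and the Btg2 relative Btg1 (limma adjusted p = 0.0933). Dusp1, a stress-induced phosphatase of p38 and JNK, and Zfp36, which destabilises cytokine mRNAs, had differences of 0.76 (SE 0.43) and 0.75 (SE 0.33), and in both the lowest library of all was wild-type library 8. The remaining regulators, among them Ier2, Ier3, Ier5, Dusp2, Zfp36l1, Nr4a1, Gadd45b, Mcl1, Cebpb and Myc, had differences from −1.21 for Myc to 0.61 for Ier2.

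**Figure D2:**
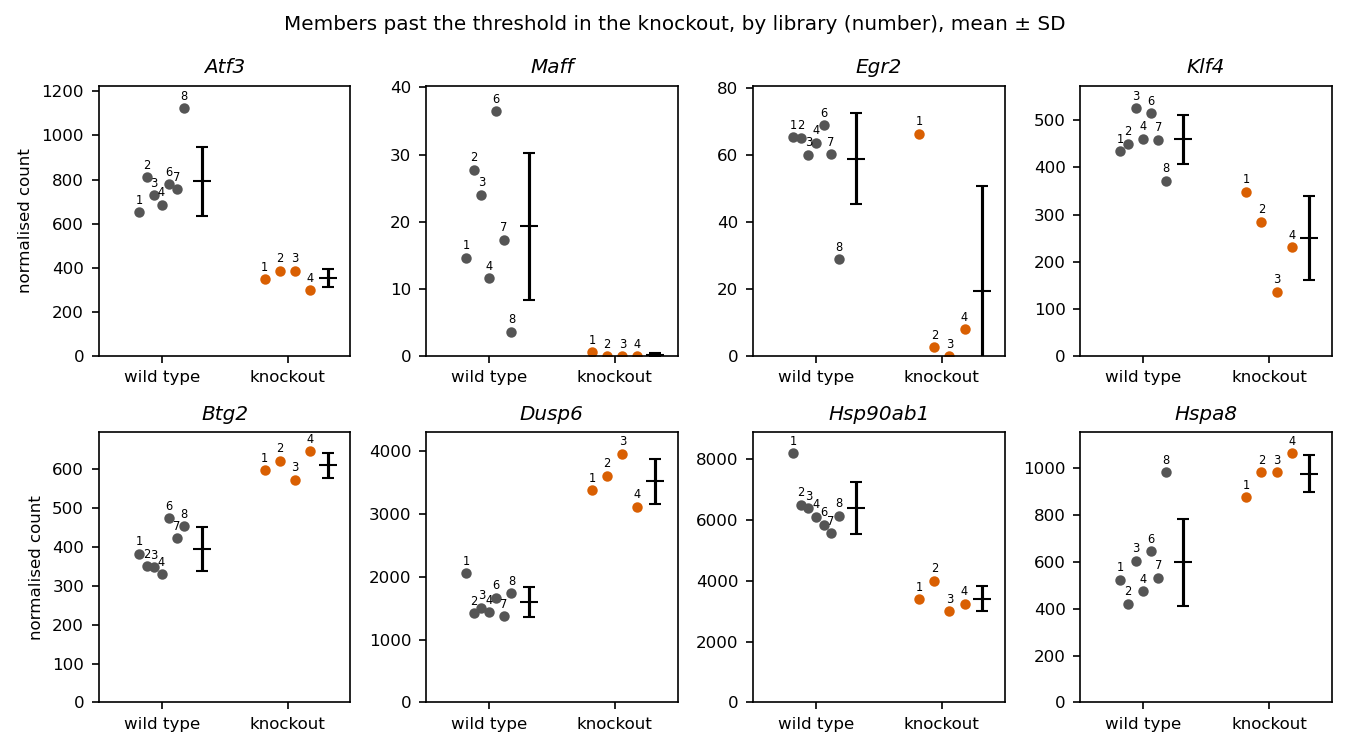
Normalised count of the 8 members that passed in the genotype comparison, by library (numbered points), with mean ± SD beside each group, wild type (n = 7) in grey and knockout (n = 4) in orange. The lower SD bars of Egr2 and Maff in the knockout are clipped at 0. Egr2 in knockout library 1 and Hspa8 in wild-type library 8 lie within the range of the other group, and the other 6 genes show no overlap.

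Heat shock members split by gene and not by family. The stress-inducible Hsp70 pair, Hspa1a and Hspa1b, showed no difference beyond the spread. Hspa1a (chromosome 17, 34969190 to 34972156, minus strand) was at 827 to 1639.6 (median 1337) in wild-type and 1220.3, 1229.5, 1131 and 1353 in knockout libraries, with a difference of 0.01 and a 95% interval of −0.39 to 0.41. Hspa1b (chromosome 17, 34956436 to 34959238, minus strand) was at 363 to 947 (median 661) and 676, 819, 623 and 924, with a difference of 0.24 and an interval of −0.25 to 0.74. Within the wild-type group libraries 1 and 2 were lowest and libraries 6 and 7 highest in both genes.

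Hspa8 and Hsp90ab1, the largely constitutive forms of Hsp70 and Hsp90, moved in opposite directions. Hspa8 (chromosome 9, 40800984 to 40810087, plus strand) was at 421 to 984 (median 533) in wild-type and 877, 983, 985 and 1065 in knockout libraries, and wild-type library 8, at 984, was the single wild-type library within the knockout range. Hspa8 rose by 0.75 (SE 0.19, limma adjusted p = 0.0106), and lost the call in limma without an intensity trend. Hsp90ab1 (chromosome 17, 45567775 to 45573271, minus strand) was at 5568 to 8186 (median 6133) in wild-type and 3403, 3995, 3008 and 3241 in knockout libraries, with no overlap. Hsp90ab1 fell by 0.90 (SE 0.13, limma adjusted p = 0.000213), and passed under all 23 alternatives. Its inducible counterpart Hsp90aa1 was at 1894 to 4774 (median 1992) and 2841, 2523, 1456 and 2427, a difference of −0.00 with an interval of −0.54 to 0.53. Dnajb1, the co-chaperone that feeds substrates to Hsp70, was at 189.6 to 288 (median 256) and 405, 448, 179.8 and 379.9 (difference 0.41, limma adjusted p = 0.204), with knockout library 3 below all wild-type libraries and the other 3 above them. The small heat shock protein Hspb1 was at 27.7 to 74.1 (median 43.5) and 10.2, 28.1, 57.5 and 13.7 (difference −1.02, limma adjusted p = 0.153).

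The Hspa1a and Hspa1b promoters are shown because the pair varied together across libraries (250 bases before the RefSeq start, GRCm38.p6, Hspa1a at chr17:34972157-34972406, minus strand, and Hspa1b at chr17:34959239-34959488, minus strand). Capitals mark GAANNTTC, a pair of inverted units of the heat shock element, which reads the same on both strands:
Hspa1a: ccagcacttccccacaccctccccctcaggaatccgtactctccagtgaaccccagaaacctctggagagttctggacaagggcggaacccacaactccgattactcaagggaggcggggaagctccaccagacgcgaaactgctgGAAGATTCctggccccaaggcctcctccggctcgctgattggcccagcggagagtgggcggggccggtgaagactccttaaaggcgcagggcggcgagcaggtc
Hspa1b: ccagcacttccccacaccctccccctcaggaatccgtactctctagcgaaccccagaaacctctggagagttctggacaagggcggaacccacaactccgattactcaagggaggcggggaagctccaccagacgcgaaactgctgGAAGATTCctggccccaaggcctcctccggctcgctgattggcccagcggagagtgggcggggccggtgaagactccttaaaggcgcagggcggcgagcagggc
The windows are identical at 247 of 250 bases (98.8%), and the element begins 104 bases before the start in both. GAANNTTC was in 3 of the 4 heat shock members with a window (Hspa1a, Hspa1b and Hspb1) and in Jun among the immediate early members, against 6.69% of all windows. The longest open reading frames of the pair are 99.6% identical over aligned bases, and the bases after the stop codon 68.4%. The last 300 bases, at the end of the transcript that 3′ tags come from, are 63.7% identical over aligned bases. How reads shared by both genes were counted is not given in the sources used here, so the division between Hspa1a and Hspa1b is uncertain. The ratio of Hspa1a to Hspa1b was 1.46 to 2.28 in the genotype libraries and 1.07 to 4.08 in the injection libraries.

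Wild-type library 8 bore on the genotype counts. It was the lowest wild-type library in 19 of the 36 tested members and the highest in 8, against 36.4% and 31.1% of all genes. Its low members included Egr1 (305, where the rest of the group held 1471 to 1856), Ier3 (141 against 894 to 1122) and Dusp1 (123 against 684 to 1052). Its high members included Klf6 (3634 against 1344 to 1597) and Hsp90aa1 (4774 against 1894 to 2134). Among the heat shock members Hspa1a, Hspa1b, Hsp90ab1 and Hspb1 were within the range of the other wild-type libraries.

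Without library 8, 18 of the 36 members passed (50%), against 30.6% of all 10352 genes tested then. The 9 that rose, against 7.64% of all genes, were Btg1, Btg2, Dusp1, Dusp6, Hspa8, Mcl1, Rhob, Zfp36 and Zfp36l1, so 8 of them were early response regulators and none was an AP-1, Egr or Klf member. The 9 that fell, against 23% of all genes, were Atf3, Fosb and Maff of the AP-1 group, Egr2, Klf2, Klf4, Hsp90ab1, and the regulators Dusp2 and Ier3. Btg1 then rose by 0.76 (limma adjusted p = 0.000708) and Zfp36l1 by 0.69 (limma adjusted p = 0.00186), and Fosb fell by 0.76 (limma adjusted p = 0.0176). With edgeR, leaving out the same library gave 14 members, against 21.9% of all genes, with 9 higher (7.95% of all genes), among them Junb (adjusted p = 0.0465), and 5 lower (13.9%). The groups did not overlap in 6 of the 36 members with all libraries, against 14.3% of all genes, and in 13 without library 8, against 23.6%. Both of the genes with the smallest adjusted p among all 36, Dusp6 and Atf3, passed with and without library 8. The 6 other wild-type libraries were close to each other, with a chi-square per degree of freedom of 4.01 to 7.47 between their read counts. Pairs with library 8 had 61.8 to 83.6, and pairs of knockout libraries, which held more reads, 34.6 to 68.1. Whether these 6 come from separate mice is not given, so the p-values without library 8 may rest on a technical spread.

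**Figure D3:**
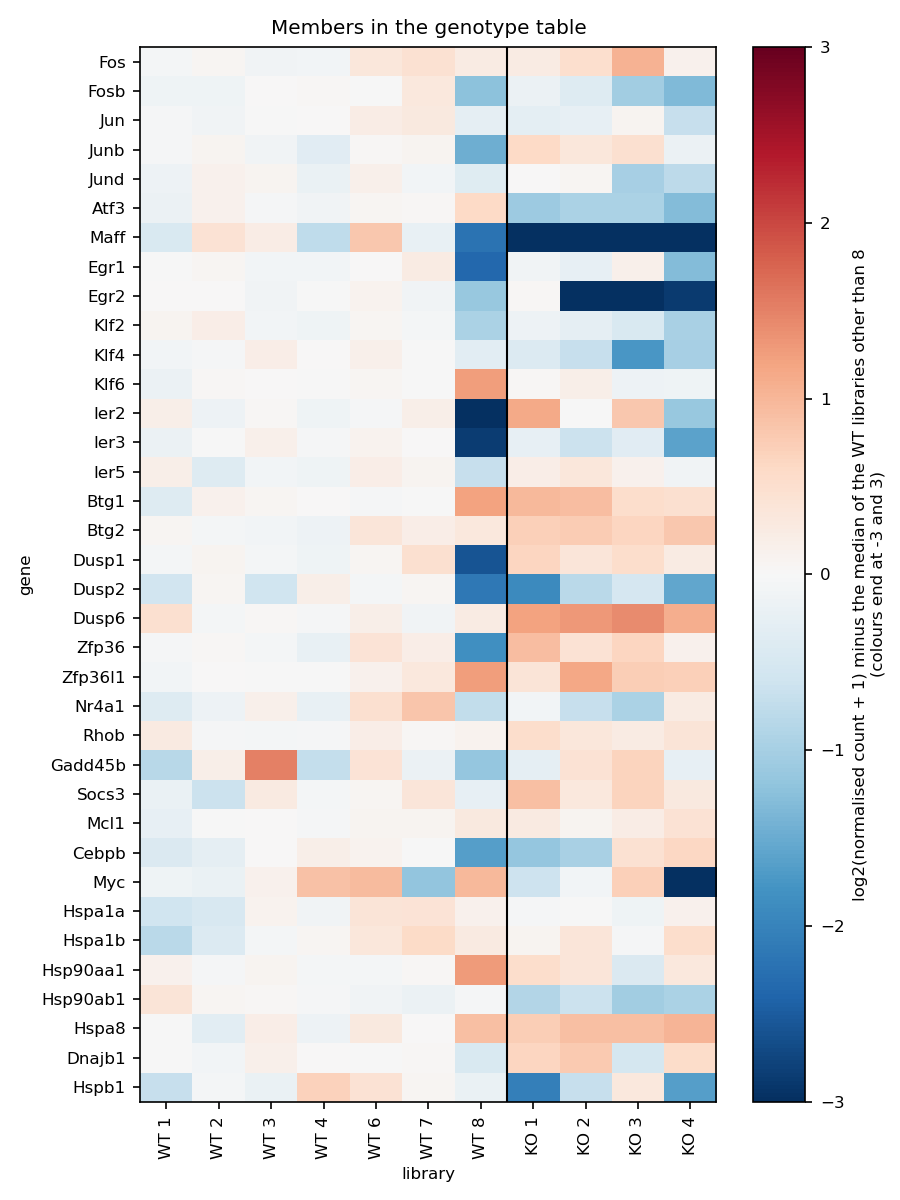
Each cell gives a member's log2(normalised count + 1) in 1 genotype library minus the median of the wild-type libraries other than 8, with colours ending at −3 and 3. The column of wild-type library 8 is blue for Ier2, Ier3, Egr1 and Dusp1 and red for Klf6, Btg1, Zfp36l1 and Hsp90aa1, while Dusp6 is red and Atf3 blue in all 4 knockout columns.

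Beyond the 37 genes, 5 lists of related genes were counted in the same fit. Beside 5.14% of all genes that rose and 19.8% that fell (median −0.45), 1 of 31 other immediate early genes tested rose and 7 fell (median −0.55), and without wild-type library 8, 4 rose and 12 fell, beside 7.64% and 23% of all genes. The clock-linked repressor Bhlhe40 went from 95.9 ± 32.5 to 0 ± 0 and the orphan nuclear receptor Nr4a2 from 22.3 ± 7.10 to 0 ± 0, both with 0 reads in each knockout library (means ± SD, n = 7 and 4, limma adjusted p = 1.58e-06 and 2.78e-05). The NF-kB modulator Nfkbid went from 61.5 ± 11.1 to 9.29 ± 3.96, and Ifrd1 from 393 ± 87.9 to 175 ± 46.0. Of 29 genes of the MAP kinase route and its phosphatases, 6 rose and 3 fell (median −0.31), and without library 8, 6 rose and 7 fell (median −0.50). Among them the phosphatase Dusp7, like Dusp6 a phosphatase of ERK, rose by 1.24, the ERK-responsive factor Elk3 by 0.94 and the ERK-activated kinase Rps6ka1 by 0.81, while the pathway inhibitor Spry2 went from 22.1 ± 8.90 to 0 ± 0.

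Of 15 other AP-1 and bZIP partners tested (median 0.17), the myeloid factor Cebpa rose by 0.64 and Batf3 by 1.40, and Mafk, a small Maf protein like Maff, fell from a mean of 26.0 ± 13.4 to 8.79 ± 13.8 (limma adjusted p = 0.0406, edgeR adjusted p = 0.440). Of 6 other Klf genes (median 0.65), Klf9, a target of glucocorticoids, fell from 126 ± 33.7 to 12.3 ± 12.3 and Klf3 rose by 1.07 (edgeR adjusted p = 0.0785). Of 32 other heat shock factors and chaperones, 0 rose and 7 fell (median −0.39), against 5.14% and 19.8% of all genes. The small heat shock proteins Hspb8 and Cryab went from 174 ± 72.7 to 6.19 ± 7.16 and from 65.2 ± 22.4 to 5.31 ± 7.49, the Hsp70-linked ubiquitin ligase Stub1 from 289 ± 83.6 to 115 ± 18.9, and the collagen chaperone Serpinh1 from 56.1 ± 17.2 to 13.1 ± 26.1 (edgeR adjusted p = 0.321). Genes with 0 reads throughout a group were 2 of the 31 other immediate early genes, 1 of the 29 MAP kinase route genes and 0 in the other lists. Setting them at 3 reads over the group left the medians as given, which so few genes could hardly move.

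Markers of other cells were counted in the same fit, in which 19.8% of all genes fell. All 6 choroid plexus markers fell, with summed levels of 23525 to 83031 in wild-type and 429 to 872 in knockout libraries, where Folr1 and Sostdc1 were at 0. All 5 tested neuron markers fell (79.4 to 908 against 0 to 20.9, with Map2, Rbfox3, Syn1 and Nsg2 at 0), as did 4 of 5 astrocyte markers (863 to 1615 against 511 to 1008, with Gfap at 0). Smaller shares fell of the oligodendrocyte markers (2 of 5, 189.6 to 626 against 92.5 to 282, with Mog and Mobp at 0) and border macrophage markers (2 of 5, 231 to 714 against 105 to 214). Of the endothelial and mural markers 1 of 5 fell (244 to 408 against 146 to 251, with Pdgfrb at 0), a share like that of all genes. Of the monocyte and neutrophil markers 2 of 6 fell (144 to 2383 against 1335 to 4952, with S100a4 and Plac8 at 0), and of the lymphocyte markers 1 of 2 tested (30.7 to 163 against 27.2 to 79.3, with Cd3e, Cd79a, Ms4a1 and Nkg7 at 0). Wild-type library 8 was the lowest wild-type library in each of these 8 sums. Without it the wild-type sums began at 56983 for choroid plexus, 680 for neuron, 1302 for astrocyte, 527 for oligodendrocyte, 592 for border macrophage, 285 for endothelial and mural, 1866 for monocyte and neutrophil and 87.7 for lymphocyte markers. The markers that fell were then 4 of 5 for oligodendrocytes, 2 of 5 for endothelial and mural cells and 2 of 2 for lymphocytes, with the other counts as given. Of 10 resting microglia markers 6 rose and 1 fell (52031 to 73262 against 69296 to 81894), so the labelled cell type was present in all libraries. The highest wild-type sum was that of library 8, and without it the range was 52031 to 55523, below every knockout library, with 7 up and 1 down. The part of these cells in the results for Maff, Egr2, Klf9, Hspb8 and other members or relatives was not tested. In bulk RNA, fewer cells of a type and less RNA per cell cannot be told apart.

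In the knockout libraries labelled as male, 21 of the 28 immediate early members tested had a lower mean log2 value 16 h after rAPOE than after PBS, but a single one passed the test over all genes. Of the 34 members tested, 1 passed (2.94%), against 0.481% of all 7066 genes tested. It was Btg2, which fell, as did 0.113% of all genes. No member rose, against 0.368% of all genes. At an unadjusted p under 0.05 there were 14 of 34 (41.2%), against 11.2% of all genes, of which 11 were lower (5.99% of all genes) and 3 higher (5.22%). Among genes with a mean of at least 50, these were 14 of 29 members (48.3%), against 17.9% of all 2486 genes. The shares of those genes were 9.29% lower and 8.61% higher. edgeR on the recovered reads gave the same 14 of 34 at an unadjusted p under 0.05, against 8.14% of all genes. After adjustment it gave 0, against 0.34%. DESeq2 passed 8 of 31, against 3.14% of the 3636 genes to which it gave an adjusted p, fewer than the 7066 of the other fits. Over the 28 immediate early members the median difference was −0.55, against −0.01 over all genes. Without both libraries numbered 5, 15 of 34 members had an unadjusted p under 0.05, the same 14 and Atf3, against 8.81% of all genes. The same 21 of the 28 differences were below 0 then, with a median of −0.66 against −0.03. Maff and Hspb1 were too low to be tested.

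All 6 tested AP-1 members had negative differences, with a median of −0.995. Fos (chromosome 12, 85473890 to 85477273, plus strand) was at 497, 622, 830.3, 632 and 353 after PBS and 117, 104, 311, 288 and 383 after rAPOE. The groups overlapped through the libraries numbered 5, since PBS library 5 was the lowest of its group and rAPOE library 5 the highest of its own. The difference was −1.42 (SE 0.34, limma adjusted p = 0.0736). Without both libraries numbered 5 it was −1.80, and Fos was then the one member that passed (limma adjusted p = 0.0232), against 0.157% of all genes.

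Jun, the main partner of Fos, was at 756, 1238, 1381, 1856 and 1236 after PBS and 450.2, 381, 598, 782 and 1014 after rAPOE, a difference of −1.04 (SE 0.28, limma adjusted p = 0.113, and 0.126 without both libraries numbered 5). Fosb was at 67.0, 84.7, 259, 115 and 27.7 and 0, 48.4, 29.1, 17.1 and 52.9 (difference −2.35, SE 0.86, limma adjusted p = 0.297). In both genes rAPOE libraries sat low, and in both at least 1 of them overlapped the PBS range. Atf3 was at 275, 197, 470.4, 573 and 348 and 139, 33.3, 182, 453 and 473 (difference −0.95, 95% interval −2.02 to 0.11), with rAPOE libraries 4 and 5 within the PBS range. Junb and Jund differed by −0.25 (SE 0.23) and −0.48 (SE 0.33). Maff was at 0 to 1.98 after PBS and 1.18, 11.1, 2.01, 18.6 and 35.8 after rAPOE, so the highest values were those of rAPOE libraries 2, 4 and 5.

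Of the Egr members, Egr1 was at 295, 506, 858, 508 and 384 after PBS and 193, 291, 385, 458 and 612 after rAPOE, a difference of −0.41 (SE 0.31, limma adjusted p = 0.667). The groups overlapped over most of their range. Egr2 was at 4.50 to 37.9 and 0 to 20.2, with 0 reads in rAPOE libraries 1 and 3. All 3 Klf members had negative differences. Klf6 (chromosome 13, 5861482 to 5870394, plus strand), a zinc finger factor of wound and inflammatory responses, was at 870.4, 796, 1194, 1106 and 617 after PBS and 613, 521, 496, 553 and 598 after rAPOE. The groups did not overlap, by a narrow margin between PBS library 5 and rAPOE library 1, and rAPOE libraries were close to each other. The difference of −0.69 (SE 0.22) did not pass (limma adjusted p = 0.225), nor did that of Klf2, −1.23 (SE 0.44), or of Klf4, −0.44 (SE 0.63).

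Btg2 was at 1193, 1454, 1766, 1210.4 and 873 after PBS and 720.0, 448, 864, 549 and 524 after rAPOE. All rAPOE libraries lay below all PBS libraries, with rAPOE library 3 and PBS library 5 nearest to each other. Btg2 fell by 1.07 (SE 0.24, limma adjusted p = 0.0464), a 2.09-fold difference of the means. It stayed negative under all 21 alternatives and passed in 9 of them, with a range of adjusted p from 0.00164 to 0.425. The call was lost with edgeR (adjusted p = 0.0875), without both libraries numbered 5 (limma adjusted p = 0.105), and without any 1 of the libraries other than rAPOE library 3 and PBS library 5.

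Among the other regulators Ier5, a target of heat shock factor and of stress signals, was at 692, 871, 923, 973 and 786 after PBS and 389, 424, 692, 432 and 607 after rAPOE. The groups met without crossing, PBS library 1 and rAPOE library 3 lying within 1 unit of each other. The difference was −0.76 (SE 0.23, limma adjusted p = 0.168). Rhob was at 1406, 959.6, 1427, 1725 and 1352 and 642, 708, 674, 773 and 977 (difference −0.85, SE 0.22, limma adjusted p = 0.0881, and 0.204 without both libraries numbered 5), with rAPOE library 5 just above the lowest PBS library. Dusp1, Btg1 and Zfp36l1 differed by −1.16, −0.61 and −0.72, each at an unadjusted p under 0.05 and none after adjustment. Dusp6 was at 734, 724, 562, 298 and 480.1 and 528, 368, 580.1, 205 and 207 (difference −0.63, limma adjusted p = 0.486).

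Of the 17 regulators 7 had positive differences, and none of these passed with limma. Dusp2, a nuclear phosphatase of ERK and p38 induced in activated immune cells, was at 10.8, 0, 56.0, 32.3 and 26.4 after PBS and 112, 51.5, 88.3, 109 and 198 after rAPOE. The overlap was limited to PBS library 3 and rAPOE library 2, and rAPOE library 5 was the highest. The difference of 2.84 (SE 0.81) did not pass with limma (adjusted p = 0.149) or edgeR (adjusted p = 0.262). It passed with DESeq2 (adjusted p = 0.0359) and, in limma, at a pseudocount of 5. The others were Gadd45b, Cebpb, Myc, Ier2, Ier3 and Socs3, from 0.21 for Ier2 to 1.51 for Gadd45b. Zfp36, Nr4a1 and Mcl1 had small negative ones, from −0.32 to −0.21.

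**Figure D4:**
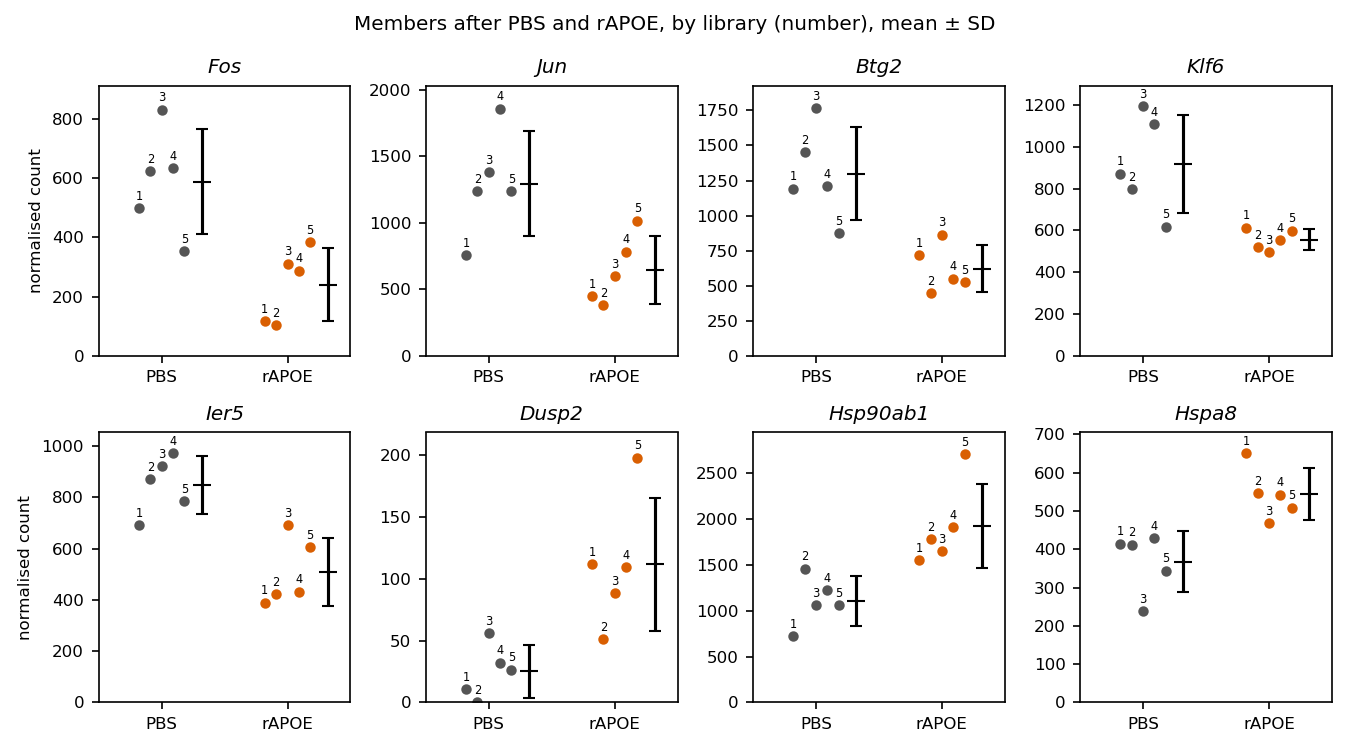
Normalised count of 8 members in the injected knockout libraries, by library (numbered points), with mean ± SD beside each group, PBS (n = 5) in grey and rAPOE (n = 5) in orange. Btg2, Klf6 and Ier5 are lower and Hsp90ab1 and Hspa8 higher in every rAPOE library than in any PBS library, while Fos, Jun and Dusp2 overlap in 1 or more libraries.

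Of the 6 heat shock members tested, 4 differences were above 0 and 2 below, with a median of 0.04. Without both libraries numbered 5 the counts were 2 and 4 and the median −0.06. Hsp90ab1 was at 721, 1459, 1064, 1228 and 1060.5 after PBS and 1551, 1779.6, 1652, 1911 and 2704 after rAPOE, with no overlap and rAPOE library 5 the highest. The difference was 0.80 (SE 0.23, limma adjusted p = 0.149). Hspa8 was at 415, 412, 238, 429 and 344 and 650.5, 546, 468, 542 and 508, again with no overlap (difference 0.58, SE 0.23, limma adjusted p = 0.352). Neither passed in these fits or with edgeR. Hsp90ab1 passed with DESeq2 (adjusted p = 0.0239) and with limma after quantile normalisation (adjusted p = 0.0149), and without both libraries numbered 5 its limma adjusted p was 0.472. Over all 34 members the groups did not overlap in 5, against 3.13% of all genes, namely these chaperones and Btg2, Ier5 and Klf6. Without both libraries numbered 5 they did not overlap in 10, against 5.48% of all genes, namely these 5 and, lower after rAPOE, Fos, Fosb, Btg1, Rhob and Zfp36l1.

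Hspa1a and Hspa1b varied more between libraries of 1 group than between groups. Hspa1a was at 439, 250.3, 209.6, 2586 and 649 after PBS and 302, 380.3, 208, 1197 and 948 after rAPOE. Hspa1b was at 108, 234, 157, 2153 and 511 and 192, 187, 193, 933 and 714. In both groups libraries 4 and 5 were the highest for both genes, and PBS library 4 stood far above the rest. These 4 libraries also held more detected genes, 10025 to 11342, against 7601 to 8837 in the other 6, and the part of this in the result was not tested. The differences were −0.10 (95% interval −1.21 to 1.01) and 0.02 (95% interval −1.24 to 1.27), so neither direction was resolved. Hsp90aa1 was at 449 to 714 and 468 to 759.8 and Dnajb1 at 56.0 to 213 and 53.5 to 144, with differences of 0.06 and −0.33. Hspb1 had its highest value, 57.3, in PBS library 4 and was at 0 in 4 of the 10 libraries.

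**Figure D5:**
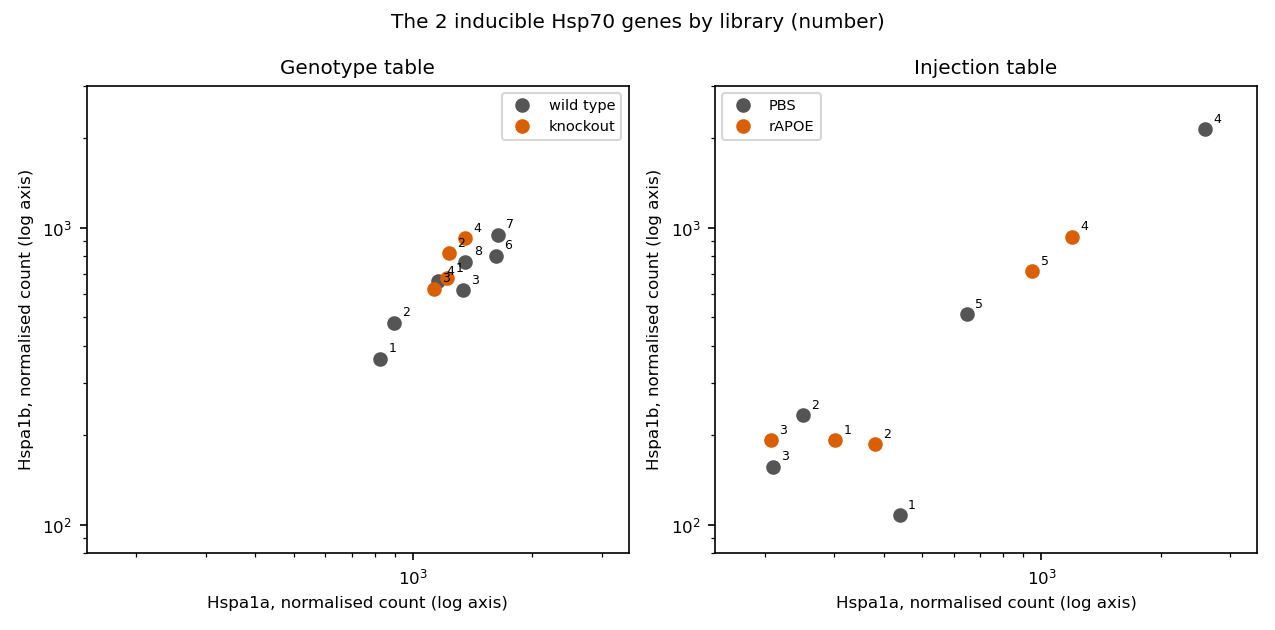
Normalised count of Hspa1b against that of Hspa1a in each library, on log axes, for the genotype table on the left and the injection table on the right. PBS library 4 lies highest at 2586 and 2153, followed by the other libraries numbered 4 and 5, and the remaining 6 injection libraries lie at 439 or less for Hspa1a.

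Libraries of the injection table also differed in how the members stood within a group. PBS library 4 was the highest PBS library in 15 of 34 members, against 15.2% of all genes, and rAPOE library 5 the highest rAPOE library in 20 of 34, against 16.4%. None of the 5 related lists had a gene that passed after rAPOE (11, 5, 25, 26 and 27 tested for bZIP partners, Klf family, other immediate early genes, MAP kinase route and other chaperones, with limma). All 11 bZIP partners had negative differences (median −0.63), and 10 did without both libraries numbered 5, while 23 of the 27 other heat shock factors and chaperones had positive ones (median 0.45), against −0.01 over all genes. Of 10 resting microglia markers 3 fell with limma, against 0.113% of all genes, and 0 with edgeR, against 0.0142%. All 10 differences were negative, with summed levels of 22105 to 26835 after PBS and 11082 to 24777 after rAPOE. Without both libraries numbered 5, 0 of the 10 fell with limma, all 10 differences were still negative, and the rAPOE range was 13677 to 24777. Summed levels of choroid plexus markers were 0.827 to 267 and 0 to 512, and of neuron markers 30.3 to 49.6 and 11.04 to 75.4. Their part in the results was not tested.

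Set side by side, the 2 comparisons share no library. Of the 34 members tested in both, 13 were higher in the knockout and lower after rAPOE (38.2%, against 22.8% of all 6871 genes tested in both). A further 10 were lower in both (29.4%, against 27.9%), 6 were higher in both (17.6%, against 17.1%), and 5 were lower in the knockout and higher after rAPOE (14.7%, against 32.2%). These counts take the sign alone and most of the differences did not pass. Btg2 was the one member that passed in both, at 0.64 in the knockout and −1.07 after rAPOE. Hsp90ab1 had −0.90 and 0.80, Hspa8 0.75 and 0.58, Atf3 −1.14 and −0.95, Dusp6 1.14 and −0.63, and Fos 0.35 and −1.42. The tables differ in labelled sex, injection and scaling, so no difference between the comparisons was tested.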

How the data were processed

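Per the labels' protocols, microglial RNA went into QuantSeq 3′ FWD libraries, read on an Illumina MiniSeq. HTSeq, DESeq2, Picard 1.8.4, R 3.2.3 and GRCm38.p3 are named in the submitters' processing notes, with no role or order, with the aligner and the strand setting not given in the sources used here. Per gene, the authors deposited a signal, here the normalised count, scaled apart in each table. Values above 0 were whole multiples of 1 step per library (100% within 0.01), so reads were recovered. They carry no molecular identifiers, so depth gives counting error only. Of 18221 genotype entries, 22 named by dates (0.0966% of the values) and 120 at 0 throughout were left out.

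limma 3.58.1 (lmFit, eBayes with trend) in R 4.3.3 was fitted to log2(normalised count + 1), knockout (n = 4) against wild type (n = 7) and rAPOE (n = 5) against PBS (n = 5), on genes whose mean over the table was 10 or more, with Benjamini-Hochberg adjustment over all genes. A raw count table had also been foreseen, and limma was the test written for normalised values. Alternatives were other filters, pseudocounts (0.5 and 5), scalings, edgeR 4.0.16 and DESeq2 1.42.0 on recovered reads, a replicate block and left-out libraries. The fits were tested on simulated data. All members are accounted for. Values per library are given for members that passed and for the member with the smallest p of each group without one, and for others chosen after their values were seen. In the text the wild-type group is given as a range, mostly with its median. Up to 4 passing genes of each related list are named. Members and lists were chosen with earlier results of these data known. Positions are from GENCODE M21 (GRCm38), and promoter windows from RefSeq (GRCm38.p6), which had one for 30 of the 37 members.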

Additional observations from a re-analysis of the deposited data

Results flagged for a closer look

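In 140 groups of library values (each member in each group of libraries), 22 had a highest or lowest library set apart from the rest by Dixon's criterion at the 95% level. Chance flags about 1 in 20 groups, and the members of a library are not independent. Of these, 14 concerned wild-type library 8. It stood low in Fosb (114), Junb (533), Egr1 (305), Egr2 (28.9), Klf2 (289), Ier2 (14.4), Ier3 (141) and Dusp1 (123). It stood high in Atf3 (1125), Klf6 (3634), Btg1 (1047), Zfp36l1 (1339.6), Hsp90aa1 (4774) and Hspa8 (984).

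The other wild-type libraries set apart were library 3, high in Gadd45b (74.5), and library 1, high in Hsp90ab1 (8186). In the knockout, library 1 stood high in Maff (0.568, a single read against 0 in the other 3) and in Egr2 (66.4). After PBS, library 2 stood high in Egr2 (37.9) and library 4 in Hspa1a (2586) and Hspa1b (2153). After rAPOE, library 5 stood high in Gadd45b (118).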

How the results depend on the processing

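Atf3, Klf4, Btg2, Dusp6 and Hsp90ab1 kept direction and call under all 23 genotype alternatives. Of the 8 members that passed there (3 higher, 5 lower), leaving out 1 library gave 7 to 18 (3 to 9 higher, 4 to 9 lower). The highest count was without wild-type library 8, where 30.6% of all genes passed. Chosen after seeing the data, edgeR without that library gave 14 (9 higher, 5 lower), against 21.9% of all genes, and quantile normalisation without it 17 (8 higher, 9 lower). A mean of at least 50 gave 6 of 31 (3 lower), against 22.6% of all genes, since Maff and Egr2 were no longer tested. DESeq2 gave 5 higher and 4 lower, against 6.3% and 15.8% of all genes. In the injection comparison (1 member, 0 higher, 1 lower) the count was 0 at a pseudocount of 0.5, with edgeR and without a trend. It was 2 (all lower) at a mean of at least 50, 3 (1 higher, 2 lower) at a pseudocount of 5 and under quantile normalisation, and 8 (2 higher, 6 lower) with DESeq2. Leaving out 1 library gave 0 to 2, all lower. Of all genes 0.34% passed with edgeR, 1.73% at a mean of at least 50, 0.948% under quantile normalisation and 3.14% with DESeq2. Shares of all genes were not counted for the pseudocounts, the fit without a trend, the other left-out libraries and quantile normalisation without library 8. The cause of these shifts was not tested.

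Replicate numbers are not said to pair libraries, and same-numbered libraries deviated together weakly (correlations across genes of −0.03 to 0.02 in the genotype and −0.00 to 0.19 in the injection table). In the injection table, libraries 4 and 5 of one group were at 0.10 to 0.19 with libraries 4 and 5 of the other. With libraries 1 to 3 of the other group they were at −0.11 to −0.01. The main fit did not take this split into account, and its part in the results was not tested. With the replicate number as a block, 13 genotype members passed (9 higher, 4 lower, against 17.5% of all genes), wild-type libraries 6, 7 and 8 then carrying no weight, and 3 injection members, all lower (0.736% of all genes).

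Directions that turned were those of members that did not pass. In the genotype comparison, the block gave Klf6 0.019, Cebpb −0.15 and Hsp90aa1 0.16. edgeR without wild-type library 8 gave Klf6 0.029, Gadd45b −0.071 and Hsp90aa1 0.25, and quantile normalisation without it Cebpb −0.15, Myc 0.93, Hspa1a −0.023 and Hsp90aa1 0.087. With all libraries, quantile normalisation gave Myc 0.62 and Hspa1a −0.047, edgeR gave Hspa1a −0.0080, DESeq2 gave it −0.032, and TMM gave Hsp90aa1 0.0083. Leaving out 1 library gave ranges of −0.40 to 0.24 for Egr1, −0.27 to 0.32 for Cebpb, −0.087 to 0.078 for Hspa1a and −0.12 to 0.20 for Hsp90aa1. In the injection comparison, edgeR gave Ier2 −0.026 and Hspa1b −0.53, DESeq2 gave them −0.029 and −0.51, and leaving out both libraries numbered 5 gave Hspa1b −0.10 and Hsp90aa1 −0.028. Leaving out 1 library gave −0.17 to 0.53 for Ier2, −0.57 to 0.024 for Zfp36, −1.35 to 0.89 for Nr4a1, −0.11 to 1.35 for Myc, −0.43 to 0.47 for Hspa1a, −0.39 to 0.68 for Hspa1b and −0.031 to 0.14 for Hsp90aa1.

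Libraries of the injection table held fewer reads than any of the genotype table. Maff and Hspb1 were under the minimum mean of 10 normalised counts there and were not tested.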
